A study of Mus musculus with 12 samples.

Results

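The genes described here are 10 components of the calcium cycle of the cardiac myocyte, namely Atp2a2, Pln, Ryr2, Slc8a1, Casq2, Cacna1c, Camk2d, Jph2, Trdn and Asph. They were chosen by gene symbol. Each symbol matched 1 of the 52858 genes in the deposited FPKM values (fragments per gene, corrected for its length and for depth), and all 10 were among the 15258 genes with enough reads to be tested. RNA was sequenced from 12 mouse hearts in 4 groups of 3. C57-non-IR hearts came from C57BL/6J mice and were perfused ex vivo for 80 min without ischemia. C57-IR hearts came from the same strain and were left without flow for 20 min and then reperfused for 40 min (ischemia-reperfusion, IR). Hearts of the Slit2-non-IR group and of the Slit2-IR group were handled in the same manners and came from Slit2-Tg mice, which carry a human Slit2 cDNA under the CMV promoter. That promoter is not specific to a tissue, and the transgene was made in C57 × CBA F1 oocytes. The methods give male mice aged 3 to 5 months. The labels state the genotype, whereas IR or non-IR follows from the title letters, matched to the groups of the methods. All hearts, controls included, had been excised and perfused through the aorta with buffer.

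In each heartbeat, calcium enters the myocyte through the L-type channel, whose pore is encoded by Cacna1c, and opens the ryanodine receptor encoded by Ryr2, which releases calcium from the sarcoplasmic reticulum onto the myofilaments. Relaxation follows when the pump SERCA2a (Atp2a2), held back by phospholamban (Pln), returns calcium to the sarcoplasmic reticulum and the sodium-calcium exchanger NCX1 (Slc8a1) carries the remainder out of the cell. Calsequestrin (Casq2) binds calcium inside the sarcoplasmic reticulum, where triadin (Trdn) and junctin (a product of Asph) tie it to the ryanodine receptor. Junctophilin (Jph2) holds that membrane close to the cell surface, and the kinase CaMKII delta (Camk2d) phosphorylates both phospholamban and the ryanodine receptor. Calcium overload during reperfusion is a well known part of ischemic injury.

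Libraries held 16601154 to 24841291 reads on genes. The summed FPKM of 10 sarcomere genes was between 17515 and 26442, so cardiac muscle markers were abundant in every library. The libraries numbered 1 stood apart. In this quantity Ttn, the transcript of the giant sarcomere protein titin, was at 23.5, 49.6, 41.4 and 39.8 FPKM in the number 1 libraries of C57BL/6J hearts without and with IR and of Slit2-Tg hearts without and with IR and at 8.65 to 12.9 FPKM in the other libraries. Slit2-IR replicate 1 also held the most atrial transcripts, with a summed FPKM of 1839 over 12 atrial genes against 51.2 to 275 elsewhere. Of 10 lung genes, 7 stayed under 1 FPKM in every library. The summed list was 77.5 to 102 FPKM in non-IR hearts and 108 to 131 FPKM in IR hearts. Most of it was Hopx, which heart muscle also expresses. Scgb1a1 reached 11.3 FPKM in Slit2-non-IR replicate 2 and at most 7.57 FPKM elsewhere, and Sftpc reached 2.93 FPKM in C57-IR replicate 3. Mouse Slit2 was at 0.0847 to 0.813 FPKM. Its means were 0.195 FPKM in C57-non-IR, 0.243 in C57-IR, 0.178 in Slit2-non-IR and 0.350 in Slit2-IR hearts. Within Slit2-IR hearts it was at 0.153, 0.813 and 0.0847 FPKM. The paper reports higher Slit2 mRNA in Slit2-Tg hearts by semi-quantitative PCR, and here the human transgene was not measured separately. Any 2 libraries of a group differed by more than counting noise (chi-square per gene of 8.34 to 52.7). In such tissue RNA, fewer cells of a type and less RNA per cell cannot be told apart.

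Promoter windows were listed for 7 of the 10 genes in RefSeq (GRCm38.p6). Shown here are the 250 bases before the start site of the regulator Pln and the store protein Casq2, the most abundant members that have a window, and of Slc8a1, the member that differed most between libraries. Capitals mark exact matches of the TATA motif TATAAA or the GATA motif AGATAA, on either strand. Other forms of these motifs were not searched and are not marked.
Pln, chr10:53337436-53337685, plus strand: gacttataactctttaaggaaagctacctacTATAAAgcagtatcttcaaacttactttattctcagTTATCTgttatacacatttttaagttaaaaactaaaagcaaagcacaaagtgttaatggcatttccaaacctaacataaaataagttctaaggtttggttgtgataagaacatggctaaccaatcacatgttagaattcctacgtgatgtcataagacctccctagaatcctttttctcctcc
Casq2, chr3:102086165-102086414, plus strand: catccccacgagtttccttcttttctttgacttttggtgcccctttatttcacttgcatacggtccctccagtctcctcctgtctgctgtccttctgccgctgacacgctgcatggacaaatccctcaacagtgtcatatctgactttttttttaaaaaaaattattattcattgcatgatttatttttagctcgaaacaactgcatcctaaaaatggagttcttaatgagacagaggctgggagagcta
Slc8a1, chr17:81738388-81738637, minus strand: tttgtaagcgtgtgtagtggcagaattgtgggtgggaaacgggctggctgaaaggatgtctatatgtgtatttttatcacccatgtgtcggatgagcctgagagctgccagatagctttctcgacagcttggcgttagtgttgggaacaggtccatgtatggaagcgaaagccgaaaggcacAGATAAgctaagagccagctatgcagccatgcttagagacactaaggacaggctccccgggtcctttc
Both strands were searched, and the capital matches do not overlap. The TATA motif TATAAA was in the window of Pln among these genes, 219 to 214 bases before the start site. It was in 12.4% of all 32851 windows of this length. The GATA motif AGATAA was in those of Pln, on the opposite strand, and of Slc8a1, and in 9.99% of all windows. The muscle motif CATTCCT matched 0 of the 10 windows of these genes, against 4.51% of all. In the forms searched, the MEF2 site and the CArG box also matched 0 of them, against 0.508% and 1.47% of all. The form used for the MEF2 site was narrow, and wider forms were not searched. The printed window of Casq2 holds a stretch rich in A and T that a wider form can match. Absence of MEF2 sites from these windows is therefore not shown. The E-box CANNTG is in 66.2% of all windows and, in the windows printed, shares 0 bases with the capitals. GC content was 32.8% for Pln, 41.6% for Casq2 and 50.4% for Slc8a1, whereas the window of Ryr2 held 63.2%.

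On the FPKM scale, which is per length, the members covered a wide range of levels. Atp2a2 had the highest level, with a mean over the 12 libraries of 2044 FPKM (range 1567 to 2476), above 99.8% of tested genes. Pln followed at 443 FPKM (374 to 571), Casq2 at 260.0 FPKM (220 to 327) and Jph2 at 139 FPKM (107 to 185). Each of these was above the next in 12 of 12 libraries and their ranges did not overlap. Slc8a1 had a mean of 46.7 FPKM and Ryr2 of 44.6 FPKM. Those neighbours could not be ordered, since Slc8a1 was the higher in 7 of 12 libraries. Trdn was at 29.6 FPKM (25.5 to 35.0) and was below Ryr2 in 12 of 12 libraries, although the ranges overlapped. Asph at 10.9 FPKM and Cacna1c at 10.4 FPKM also could not be ordered, with Asph the higher in 7 libraries. Camk2d was lowest at 5.14 FPKM (3.54 to 6.73), from 1356 to 3022 reads.

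**Figure D1:**
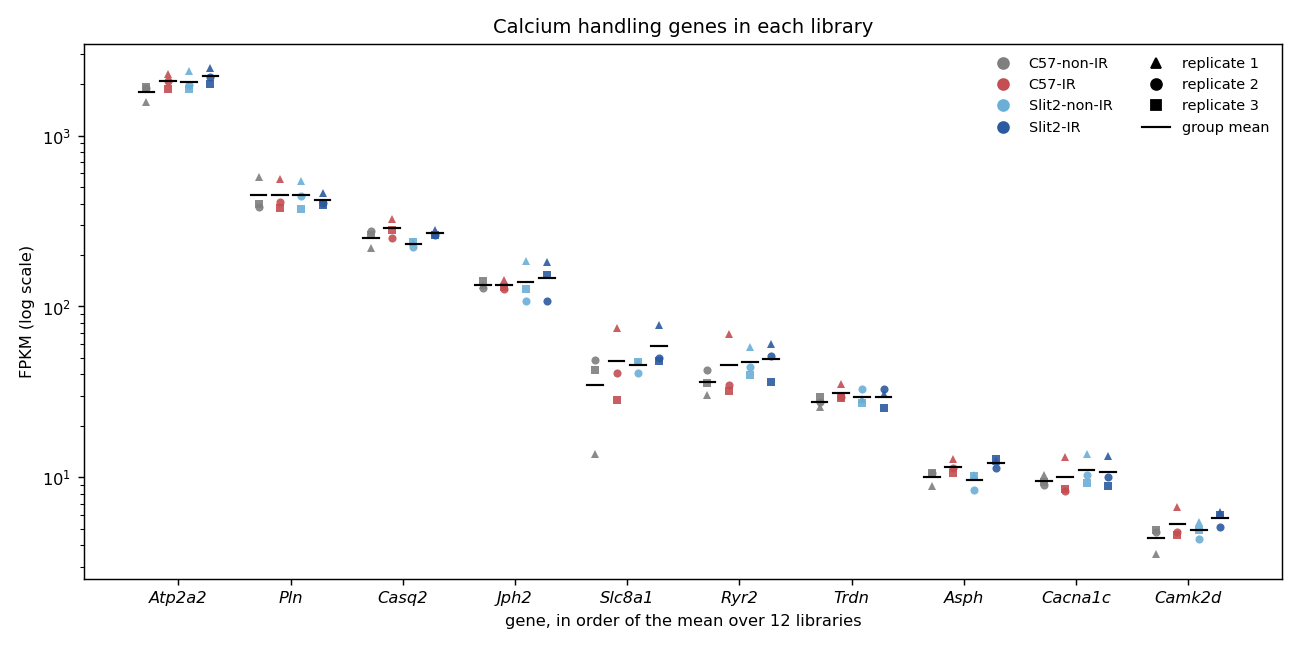
FPKM (log axis) of each calcium handling gene in each of the 12 libraries, with color for the group, marker shape for the replicate number and a bar for the group mean (n = 3). Atp2a2 lies at 1567 to 2476 FPKM and Camk2d at 3.54 to 6.73 FPKM, and the triangles of replicate 1 lie at an edge of the group for most genes.

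The order depends on the length used for 2 members. The files give gene models of 28790 bases for Ryr2, 21191 for Cacna1c, 22493 for Camk2d and 16102 for Asph, which join all annotated exons and equal those of GENCODE M21. For 9 members the lengths were the same in that annotation. With the longest protein coding transcript in place of the joined exons, Camk2d came to 20.9 and Cacna1c to 16.7 FPKM, and the other 7 kept their order. Slc8a1 was the exception, with a model of 2934 bases on chromosome 17 from 81388691 to 81649607, whereas the exons of GENCODE M21 join to 18807 bases. The RefSeq start site whose window is printed above lies 88780 bases beyond the end of that model. From 687 to 4644 reads stood behind the values of Slc8a1, and with the length unsettled its level against the other members is uncertain. Its ratio to Atp2a2, given further on, compares libraries and is not a ratio of molecules.

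Atp2a2 and Pln set the return of calcium to the sarcoplasmic reticulum. Atp2a2 (ENSMUSG00000029467, chromosome 5 from 122453513 to 122502225) was at 1567, 1892 and 1917 FPKM in C57-non-IR, 2291, 2087 and 1877 in C57-IR, 2376, 1974 and 1865 in Slit2-non-IR and 2476, 2201 and 2002 in Slit2-IR hearts. The group means were 1792 ± 195, 2085 ± 207, 2071 ± 269 and 2226 ± 238 FPKM (SD, n = 3). C57-non-IR replicate 1 was the lowest library, and all groups overlapped. Over both genotypes the log2 fold change of IR against non-IR hearts was 0.16 (95% interval -0.069 to 0.39), with a limma p of 0.151 and an adjusted p of 0.519.

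Pln (ENSMUSG00000038583, chromosome 10 from 53337667 to 53345987) was at 571, 383 and 397 FPKM in C57-non-IR, 561, 411 and 377 in C57-IR, 542, 441 and 374 in Slit2-non-IR and 458, 402 and 395 in Slit2-IR hearts. Its highest value in every group was that of replicate 1, so that the spread within a group was larger than any difference between group means. Those means were 450.2 ± 105, 449 ± 98.1, 452 ± 84.6 and 418 ± 34.7 FPKM (SD, n = 3). The log2 fold change of IR was -0.049 (95% interval -0.36 to 0.26, limma adjusted p = 0.925). The ratio of Pln to Atp2a2, which weighs the inhibitor against the pump, was 0.258 ± 0.0920 in C57-non-IR, 0.214 ± 0.0267 in C57-IR, 0.217 ± 0.0148 in Slit2-non-IR and 0.188 ± 0.00780 in the Slit2-IR group (SD, n = 3). Within the Slit2-Tg hearts, the ratios of the IR group (0.185, 0.183 and 0.197) were all below those of the non-IR group (0.228, 0.223 and 0.2003), a two-sided exact permutation p of 0.1, which is the smallest that 3 against 3 can give. Over both genotypes the log2 ratio differed by -0.21 (two-sided exact permutation within genotype, p = 0.125, 0.625 after Benjamini-Hochberg adjustment over 15 ratio tests). It was -0.074 without C57-non-IR replicate 1 and between -0.285 and -0.18 with any other library left out.

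Slc8a1 (ENSMUSG00000054640), the main route of calcium out of the myocyte, varied most. It was at 13.7, 48.3 and 42.6 FPKM in C57-non-IR, 75.3, 40.8 and 28.3 in C57-IR, 47.1, 40.8 and 47.6 in Slit2-non-IR and 78.0, 49.9 and 47.7 in Slit2-IR hearts. The lowest and the highest of these 12 values both came from libraries numbered 1. In Slit2-Tg hearts the IR values lay above the non-IR values, by a narrow margin of 47.7 against 47.6 FPKM. Means were 34.9 ± 18.5, 48.1 ± 24.3, 45.2 ± 3.77 and 58.5 ± 16.9 FPKM (SD, n = 3). The log2 fold change of IR over both genotypes was 0.43 (95% interval -0.26 to 1.11, limma adjusted p = 0.587), the widest interval of the 10 members. With the libraries numbered 1 left out, the value was -0.13 (95% interval -0.42 to 0.15), which is the opposite direction. The Slc8a1 to Atp2a2 ratio differed by 0.28 on the log2 scale between IR and non-IR hearts (two-sided exact permutation within genotype, p = 0.39). That difference was 0.036 without C57-non-IR replicate 1, 0.12 without C57-IR replicate 1 and 0.42 without C57-non-IR replicate 2.

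For IR over both genotypes, Asph and Casq2 had the smallest unadjusted p of the members, without passing the adjusted threshold. They were 2 of 10 members at an unadjusted p under 0.05 in limma, beside 15.9% of all genes. With scaling to the sarcomere genes, their log2 fold changes were 0.15 (Asph, limma p of 0.254) and 0.088 (Casq2, limma p of 0.531). Asph (ENSMUSG00000028207, chromosome 4 from 9448069 to 9669344) encodes junctin and also the enzyme aspartate beta-hydroxylase, and the gene value sums them. It was at 8.92, 10.7 and 10.6 FPKM in C57-non-IR, 12.8, 11.3 and 10.6 in C57-IR, 10.3, 8.49 and 10.2 in Slit2-non-IR and 12.4, 11.4 and 12.8 in Slit2-IR hearts. The 3 Slit2-IR values lay above the 3 Slit2-non-IR values, while in C57BL/6J hearts the groups overlapped at their edges (10.6 and 10.7 FPKM). The log2 fold change of IR was 0.18 (standard error 0.11, limma p of 0.117) in C57BL/6J hearts, 0.31 (0.11, limma p of 0.0154, adjusted p = 0.278) in Slit2-Tg hearts and 0.25 (0.076, limma p of 0.00801, adjusted p = 0.118) over both. In Slit2-Tg hearts the limma p rose to 0.0731 without Slit2-non-IR replicate 2 and to 0.0515 without Slit2-IR replicate 3. On the linear scale of FPKM + 1, the difference over both genotypes is an 18.6% higher level. The interaction was 0.13 (standard error 0.15, limma p of 0.430), so a different response in Slit2-Tg hearts was not shown.

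Casq2 (ENSMUSG00000027861, chromosome 3 from 102086415 to 102146514) was at 220, 275 and 263 FPKM in C57-non-IR, 327, 253 and 279.9 in C57-IR, 238, 223 and 238 in Slit2-non-IR and 281, 261 and 263 in Slit2-IR hearts. All 3 Slit2-IR values were above the Slit2-non-IR values, and in C57BL/6J hearts the groups overlapped. Means were 253 ± 29.0, 287 ± 37.6, 233 ± 8.91 and 268 ± 10.9 FPKM (SD, n = 3). The log2 fold change of IR was 0.18 in C57BL/6J hearts, 0.20 in Slit2-Tg hearts and 0.19 over both (95% interval 0.0087 to 0.37, limma p of 0.0416, adjusted p = 0.289). Without the libraries numbered 1 it was 0.084 over both (limma p of 0.199) and -0.015 in C57BL/6J hearts.

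Ryr2 (ENSMUSG00000021313, chromosome 13 from 11553102 to 12106945), the release channel, was at 30.3, 42.3 and 35.8 FPKM in C57-non-IR, 69.0, 34.9 and 32.1 in C57-IR, 58.2, 44.4 and 39.9 in Slit2-non-IR and 60.7, 51.5 and 36.2 in Slit2-IR hearts. The 3 highest of the 12 values were those of libraries numbered 1, and the lowest was C57-non-IR replicate 1. The log2 fold change of IR over both genotypes was 0.14 (95% interval -0.29 to 0.58, limma adjusted p = 0.822) and became -0.089 without the libraries numbered 1. The Casq2 to Ryr2 ratio, store protein to release channel, was 7.03 ± 0.465 in C57-non-IR, 6.90 ± 2.02 in C57-IR, 5.02 ± 0.943 in Slit2-non-IR and 5.65 ± 1.43 in the Slit2-IR group (SD, n = 3). Without IR, the 3 ratios of Slit2-Tg hearts (4.09, 5.01 and 5.97) lay below those of C57BL/6J hearts (7.25, 6.49 and 7.34), with an exact two-sided permutation p of 0.1, the smallest possible, and 0.625 after adjustment. The ratio differed by 0.045 on the log2 scale between IR and non-IR hearts (exact permutation p = 0.805).

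**Figure D2:**
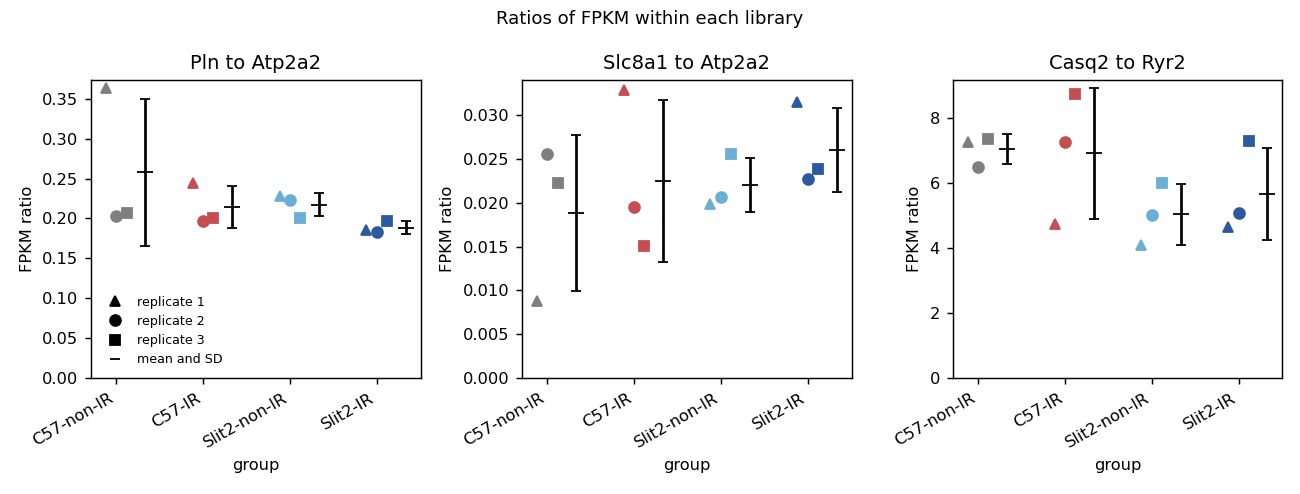
Ratios of FPKM within each library for Pln to Atp2a2, Slc8a1 to Atp2a2 and Casq2 to Ryr2, by group, with a marker for each replicate and the mean and SD (n = 3) beside them. The Pln to Atp2a2 ratio of C57-non-IR replicate 1 (0.364) and its Slc8a1 to Atp2a2 ratio (0.00877) lie far from those of the other 2 libraries of the group.

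Trdn, Jph2, Cacna1c and the kinase gene Camk2d each had a 95% interval of IR over both genotypes that included 0. Trdn (ENSMUSG00000019787, chromosome 10 from 33080554 to 33476709) had means of 27.7 ± 1.84, 31.2 ± 3.25, 29.6 ± 3.10 and 29.7 ± 3.82 FPKM (SD, n = 3) in C57BL/6J hearts without and with IR and in Slit2-Tg hearts without and with IR, a log2 fold change of IR of 0.084 (95% interval -0.10 to 0.27). Jph2 (ENSMUSG00000017817, chromosome 2 from 163336242 to 163397993) lay between 126 and 143 FPKM in the 6 C57BL/6J libraries and between 107 and 185 FPKM in the 6 Slit2-Tg libraries. Both of its highest values, 185 and 181 FPKM, were Slit2-Tg libraries numbered 1, and the log2 fold change of IR was 0.032 (95% interval -0.29 to 0.35). Cacna1c (ENSMUSG00000051331, chromosome 6 from 118587240 to 119196418) was at 13.2, 13.7 and 13.3 FPKM in the number 1 libraries of C57-IR hearts and of both Slit2-Tg groups and at 8.28 to 10.3 FPKM in the other 9, with a log2 fold change of IR of -0.0044 (95% interval -0.30 to 0.29). Camk2d (ENSMUSG00000053819, chromosome 3 from 126596302 to 126846326) had means of 4.42 ± 0.768, 5.37 ± 1.18, 4.94 ± 0.581 and 5.81 ± 0.607 FPKM (SD, n = 3) and a log2 fold change of IR of 0.21 (95% interval -0.021 to 0.45, limma p of 0.0702, adjusted p = 0.373). The span of Trdn overlaps an antisense RNA gene at up to 6.67 FPKM. It also overlaps a pseudogene of the same strand at up to 9.03 FPKM. The span of Pln overlaps a gene of the opposite strand at up to 12.3 FPKM. Overlap of exons or of reads was not examined. How reads were assigned there is not known, so these values are uncertain.

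Between the number 1 library and the other 2 of a group the members moved in 2 ways. Replicate 1 had the highest value of its group for 10 of 10 members in C57-IR, 7 in Slit2-non-IR and 8 in Slit2-IR hearts. In C57-non-IR hearts it had the lowest value for 7 members and the highest for 2, Pln and Cacna1c, and over all 12 libraries it had the lowest value for 5 members. For Slc8a1 it was at 0.303 of the mean of the other 2 libraries of C57-non-IR and at 2.18 times that mean in C57-IR hearts. Ttn was higher in replicate 1 of all 4 groups, by 2.12 to 5.48 times, so C57-non-IR replicate 1 did not set the members and Ttn apart in the same direction. The part of these libraries in the differences between groups is given below by leaving them out.

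**Figure D3:**
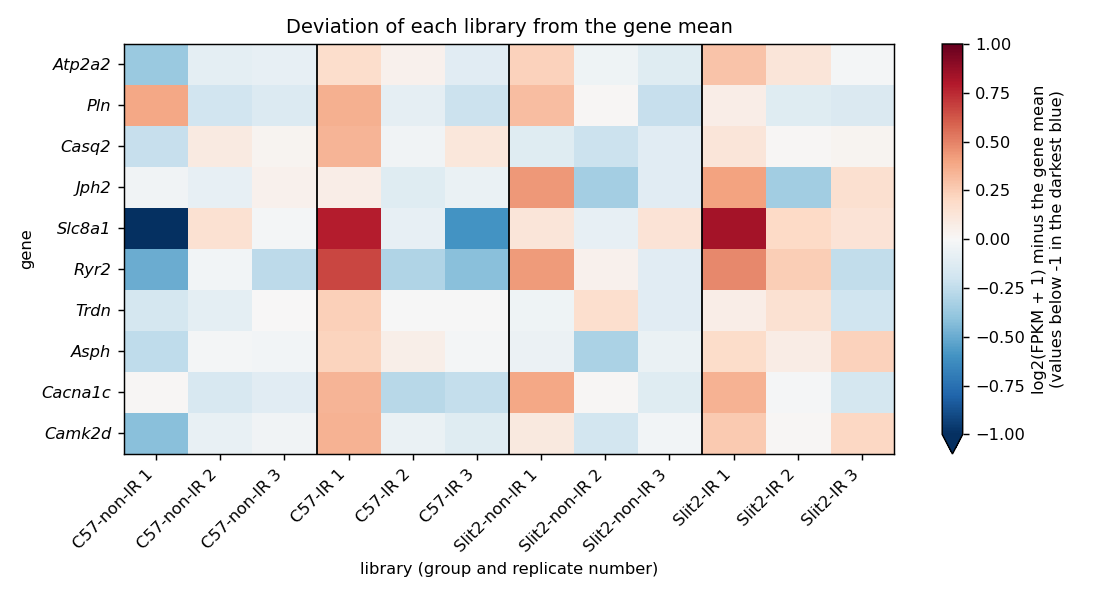
Deviation of log2(FPKM + 1) from the mean of the gene over 12 libraries (color), with genes in rows and libraries in columns by group. C57-non-IR replicate 1 is blue for most genes and red for Pln, and C57-IR replicate 1 is red for all 10.

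Across the 10 members, the response to IR was tested against the spread between hearts in a fit over all genes. In C57BL/6J hearts 8 members were higher and 2 lower after IR, the median log2 fold change was 0.18 against 0.0013 for all tested genes, and 0 members had an adjusted p under 0.05 in limma's test, as did 0.439% of all genes. At an unadjusted p under 0.05 there were also 0 members, against 8.96% of genes, and groups did not overlap for 0 members, against 13.8%. The log2 fold changes ran from -0.015 (Jph2) to 0.52 (Slc8a1). Their median was 0.081 without C57-IR replicate 1, 0.11 without C57-non-IR replicate 1 and -0.028 without the libraries numbered 1. In Slit2-Tg hearts 8 members were again higher, with a median of 0.093 against 0.0052. Here 0 passed the adjusted threshold (background 0.505%), 1 had an unadjusted p under 0.05 (Asph, background 11.2%), and the groups did not overlap for 3, Slc8a1, Casq2 and Asph (background 17%). The values ran from -0.098 (Pln) to 0.33 (Slc8a1). The median was -0.00086 without Slit2-IR replicate 1, 0.030 without Slit2-non-IR replicate 3, 0.17 and 0.18 without replicate 2 or 3 of the Slit2-IR group, 0.21 without Slit2-non-IR replicate 1 and -0.076 with scaling to the sarcomere genes. Over both genotypes 0 members passed the adjusted threshold (background 3.48%) and Asph and Casq2 had an unadjusted p under 0.05 (2 of 10, background 15.9%). The median of 0.15 over both genotypes became 0.012 without the libraries numbered 1. Leaving out 1 library gave it a range of 0.086 (C57-IR replicate 1 omitted) to 0.21 (Slit2-non-IR replicate 1 omitted). Counts of 0 to 3 among 10 members are small numbers beside these backgrounds and are not read as a result about the members. The limma-voom test on recovered reads gave the same counts, 0 adjusted calls in every comparison and 0, 1 and 2 members at an unadjusted p under 0.05 in these 3.

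Slit2-Tg hearts were compared with C57BL/6J hearts in each condition. In these comparisons the transgene and any other difference between the mouse lines cannot be told apart. Without IR, 8 members were higher in Slit2-Tg than in C57BL/6J hearts and 2 lower, from -0.11 (Casq2) to 0.54 (Slc8a1) on the log2 scale, with a median of 0.12. That median was 0.032 without C57-non-IR replicate 1, 0.051 without Slit2-non-IR replicate 1, 0.20 without Slit2-non-IR replicate 2 and -0.014 without the libraries numbered 1. By limma, 0 members had an adjusted p under 0.05 (background 0.0393%) and 0 an unadjusted p under 0.05 (background 3.18%), and groups did not overlap for 0 (background 9.18%). The value of Slc8a1 rested on C57-non-IR replicate 1 and was -0.0088 without it. The paper lists Ryr2 among its differentially expressed genes of this comparison, at a P value cutoff of 0.05. Here the log2 fold change of Ryr2 was 0.38 (limma p of 0.204). After IR, 7 members were higher and 3 lower, from -0.088 (Casq2) to 0.36 (Slc8a1), with a median of 0.10. That median was -0.012 without Slit2-IR replicate 1, 0.020 without C57-IR replicate 3, 0.044 without C57-IR replicate 2 and 0.17 without C57-IR replicate 1. The value of Slc8a1 ran from 0.042, without C57-IR replicate 3, to 0.73, without C57-IR replicate 1. Again 0 passed either threshold in limma (backgrounds 0.0459% and 3.16%) and groups did not overlap for 0 members (background 6.47%). Both comparisons share groups with those of IR, so their values are not independent. The interaction of Slit2 and IR ran from -0.20 (Ryr2) to 0.13 (Asph). It had 0 members past the adjusted (background 0%) and 0 past the unadjusted threshold (background 1.85%) in limma, and the smallest p of a member was 0.350 (Trdn). limma-voom also gave 0 and 0 for these 3 comparisons.

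These intervals set what could be seen. The 95% interval of IR over both genotypes spanned 0.34 for Asph, 0.37 for Casq2 and Trdn and 1.37 for Slc8a1 on the log2 scale. In single comparisons of 3 against 3 hearts, the bounds over all members reached from -0.63 to 1.51, so differences of moderate size in Slc8a1 and Ryr2 were not detectable with this spread.

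**Figure D4:**
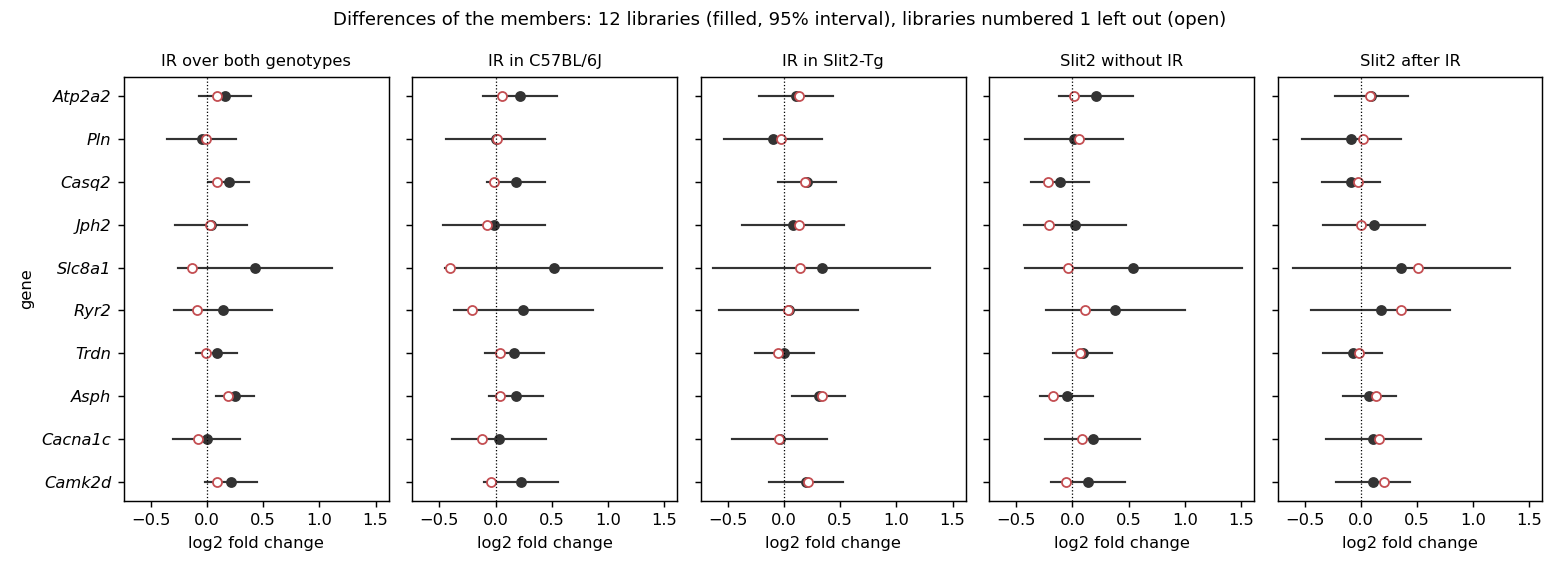
Log2 fold change of each member in 5 comparisons, with filled points and 95% intervals for the fit of 12 libraries and open points for the fit without the libraries numbered 1. Intervals of 12 libraries include 0 except for Asph in Slit2-Tg hearts and for Asph and Casq2 over both genotypes, and the open point of Slc8a1 lies left of 0 for IR in C57BL/6J hearts.

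With the 4 libraries numbered 1 left out, 0 members passed the adjusted threshold in any of the 6 comparisons. At an unadjusted p under 0.05, limma then gave Slc8a1 for IR in C57BL/6J hearts (log2 fold change -0.41, p of 0.0485, against 0.52 with all libraries) and for Slit2-IR against C57-IR hearts (0.51, p of 0.0202). It also gave Casq2 for Slit2-non-IR against C57-non-IR hearts (-0.22, p of 0.0335) and Asph for IR in Slit2-Tg hearts (0.34, p of 0.0162) and over both genotypes (0.19, p of 0.0428). Asph was thus at an unadjusted p under 0.05 over both genotypes with and without those libraries. Without the library rich in atrial transcripts, Slit2-IR replicate 1, the same held for Asph.

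Around these members, 6 lists of 115 other calcium genes were followed, of which 109 were tested. In limma's test of IR over both genotypes, 4 of them rose and 0 fell at an adjusted p under 0.05, against 2.33% of all genes that rose and 1.15% that fell. At an unadjusted p under 0.05, 15 were higher and 1 lower over both genotypes, against 7.92% and 7.96% of all genes. In both directions together this was 16 of 109 beside a background of 15.9%, a similar share. The unadjusted counts of IR were 6 higher and 0 lower in C57BL/6J hearts (background 8.96% in both directions) and 11 and 1 in Slit2-Tg hearts (background 11.2%). For Slit2-Tg against C57BL/6J they were 1 and 0 without IR (background 3.18%) and 3 and 0 after IR (background 3.16%), and 0 and 0 for the interaction (background 1.85%), with 0 adjusted calls in these last 3.

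Among partners of the L-type channel, 1 of 15 tested genes rose with IR over both genotypes (background 2.33%), and its count is not read as a result about the list. This was Gem, a small GTPase that holds back the channel. Gem (chromosome 4 from 11704457 to 11714752) was at 4.66, 8.65 and 5.22 FPKM in C57-non-IR, 13.9, 45.9 and 27.5 in C57-IR, 3.51, 9.68 and 8.94 in Slit2-non-IR and 36.7, 34.5 and 26.7 in Slit2-IR hearts. Every IR value was above every non-IR value. The log2 fold change over both genotypes was 2.03 (standard error 0.29, limma adjusted p = 0.00428), and 1.96 and 2.09 in C57BL/6J and Slit2-Tg hearts with adjusted p of 0.0789 and 0.0570 (0.0174 in Slit2-Tg hearts with the replicate number as a block). Rrad, its relative, did not pass. It had a mean of 150.0 ± 61.0 in C57-non-IR, 318 ± 152 in C57-IR, 159 ± 13.9 in Slit2-non-IR and 333 ± 87.8 FPKM in the Slit2-IR group (SD, n = 3), and a log2 fold change of 1.02 (limma p of 0.00332) with an adjusted p of 0.0725. Ahnak, a scaffold of the channel's beta subunit, had a value of -0.30 (limma p of 0.0202, adjusted p = 0.197). Between genotypes, the smallest p belonged to Cacnb4 without IR (-0.078, limma p of 0.135) and to the T-type channel gene Cacna1g after IR (0.60, limma p of 0.0586). Cacnb4 was at only 0.111 to 0.249 FPKM over the 12 libraries. Cacna1g was at 5.72, 1.75 and 2.12 FPKM in Slit2-IR and 1.89, 1.74 and 1.08 FPKM in C57-IR hearts. Its highest value was that of Slit2-IR replicate 1, the library rich in atrial transcripts.

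Among regulators of the sarcoplasmic reticulum, 1 of 22 tested genes rose (background 2.33%). Calr, for the calcium binding chaperone calreticulin, had means of 71.6 ± 5.45, 96.6 ± 17.4, 70.2 ± 11.96 and 109.8 ± 18.7 FPKM (SD, n = 3) in C57BL/6J hearts without and with IR and in Slit2-Tg hearts without and with IR. Its log2 fold change of IR was 0.53 (standard error 0.12, limma adjusted p = 0.0411), and the call was lost in 9 of 12 fits that left out 1 library (adjusted p up to 0.107). It was kept only without C57-IR replicate 1, Slit2-non-IR replicate 3 or Slit2-IR replicate 2. The chaperone gene Canx (0.26, limma p of 0.00513, adjusted p = 0.0918) and Fkbp1a (0.23, limma p of 0.00489, adjusted p = 0.0893), whose product FKBP12 binds ryanodine receptors, did not pass. For Slit2, the smallest p were those of Mrln without IR (-0.15, limma p of 0.102) and Casq1, the skeletal calsequestrin, after IR (1.07, limma p of 0.0951). Mrln was at only 0.294 to 0.647 FPKM over the 12 libraries. Casq1 was at 17.9, 1.92 and 6.44 FPKM in Slit2-IR and 2.35, 3.04 and 2.26 FPKM in C57-IR hearts. The highest of these was again Slit2-IR replicate 1. Sln, an atrial inhibitor of the pump, was at 262 FPKM in Slit2-IR replicate 1, 19.5 in C57-IR replicate 2 and at most 1.55 elsewhere. It is itself among the 12 atrial genes summed above. Myl7, another of them, was at 1049 FPKM in Slit2-IR replicate 1 and at most 108 elsewhere.

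Of 31 tested genes of calcium signaling, 2 rose with IR over both genotypes (background 2.33%). In value 27 were higher, as were 7816 of the 15258 tested genes, and the median was 0.11 against 0.0035 for all genes. Pde4b, a phosphodiesterase that breaks down cyclic AMP, was at 2.34, 2.35 and 2.59 FPKM in C57-non-IR, 5.53, 10.2 and 7.67 in C57-IR, 2.20, 4.11 and 2.64 in Slit2-non-IR and 6.85, 8.95 and 7.79 in Slit2-IR hearts. All IR values lay above all non-IR values. Its log2 fold change was 1.33 in C57BL/6J hearts (limma adjusted p = 0.0280), 1.18 in Slit2-Tg hearts (0.0404) and 1.25 over both (standard error 0.14, limma adjusted p = 0.00173). With 1 library left out, the call in C57BL/6J hearts was lost in 6 of 12 fits (adjusted p up to 0.139), namely without any C57-non-IR library, C57-IR replicate 2 or 3 or Slit2-non-IR replicate 3. That in Slit2-Tg hearts was lost in 9 (up to 0.140) and kept only without C57-IR replicate 1 or 2 or Slit2-non-IR replicate 2. Rcan1, a calcium-responsive inhibitor of calcineurin, rose over both genotypes by 1.12 on the log2 scale (standard error 0.18, limma adjusted p = 0.00761), with means of 23.2 ± 2.91 and 55.7 ± 25.0 FPKM in C57BL/6J and of 24.4 ± 1.24 and 53.8 ± 10.7 FPKM in Slit2-Tg hearts without and with IR (SD, n = 3). Within 1 genotype it did not pass in limma, with adjusted p of 0.103 and 0.09997. Prkar1a, a regulatory subunit of protein kinase A, had a value of 0.30 (limma p of 0.0104, adjusted p = 0.136). For Slit2 after IR, the smallest p was that of Gnas, the stimulatory G protein subunit (0.27, limma p of 0.0164), and without IR that of Camk2a (0.45, limma p of 0.0417), with adjusted p of 0.9996 and 0.9995.

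**Figure D5:**
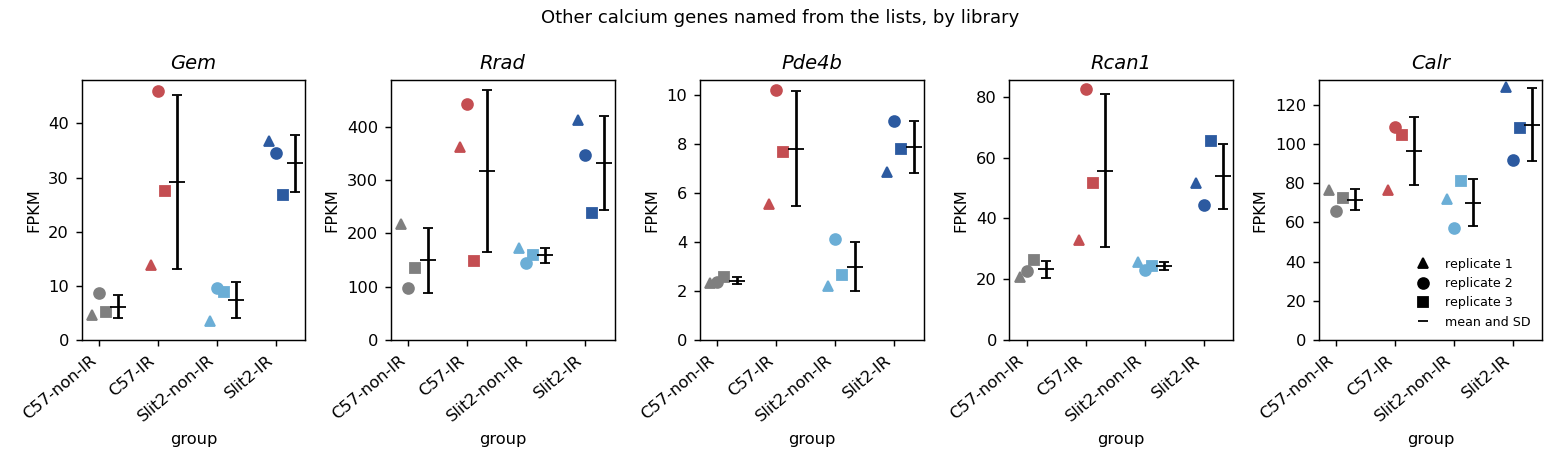
FPKM of Gem, Rrad, Pde4b, Rcan1 and Calr in each library by group, with the mean and SD (n = 3) beside the points. For Gem, Pde4b and Rcan1 all IR values lie above all non-IR values, while the values of Rrad and Calr overlap between IR and non-IR hearts.

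The remaining 3 lists had 0 genes past the adjusted threshold of limma in any comparison. For IR over both genotypes, 0 of 12 genes of dyad structure, 2 of 18 of membrane transport and 0 of 11 of mitochondrial calcium uptake had an unadjusted p under 0.05 in limma, against 15.9% of all genes. The smallest p in these lists were those of the membrane repair gene Dysf (0.16, limma p of 0.0655), Nexn (0.11, p of 0.0994) and Cav3 (0.091, p of 0.181) for the dyad. For membrane transport they were those of Slc8a2 (0.10, p of 0.0345), the channel gene Trpc1 (0.12, p of 0.0461) and the calcium pump gene Atp2b4 (-0.15, p of 0.0860). Slc8a2 was at 0.132 to 0.393 FPKM and Trpc1 at 0.790 to 1.31 FPKM over the 12 libraries. Atp2b3, named below, was at 0.0240 to 0.170 FPKM. Changes at such low levels are understated on the scale of log2(FPKM + 1). For mitochondria they were those of the uniporter regulator Micu2 (0.084, p of 0.212), Mcub (-0.10, p of 0.313) and the outer membrane channel gene Vdac1 (0.049, p of 0.454). Between genotypes, the values with the smallest p were Cav3 (-0.16, p of 0.0998), Atp2b3 (0.092, p of 0.123) and Micu2 (0.12, p of 0.223) without IR, and Speg (0.35, p of 0.286), Stim2 (-0.23, p of 0.0785) and Mcub (-0.27, p of 0.0763) after IR, all unadjusted and from limma.

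The members differed in how closely they followed each other over the 12 libraries. The correlation of a gene with the mean of the other 9, on the centered log2 scale, was 0.89 for Atp2a2, Camk2d and Ryr2, 0.75 for Slc8a1 and 0.71 for Cacna1c, and lowest for Jph2 (0.46) and Pln (0.21). The libraries numbered 1 and the scaling are common to all these points, so the values are descriptions. Of 15248 other tested genes, the 5 with the profile most like the mean of the members over 12 libraries were Ank (r = 0.98, rho = 0.92), Mfn2 (0.97 and 0.92), Osbpl8 (0.97 and 0.87), Usp47 (0.97 and 0.87) and Prkaa2 (0.95 and 0.90).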

How the data were processed

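FPKM values per gene and library were deposited by the authors, with Ensembl identifiers, gene lengths and GRCm38 coordinates. The submitters' processing notes name HISAT2 and mm10. How reads were counted, with which annotation release and whether by strand is not given in the sources used here. Times gene length, 100% of FPKM values were whole multiples of 1 step per library (tolerance 0.05 reads), which gave the reads behind each value. The steps followed median-of-ratios size factors. There were 0 unused columns.

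The 15258 tested genes had the equivalent of at least 10 reads in at least 3 libraries and 15 in total. The main test was limma 3.58.1 (R 4.3.3) with a variance trend on log2(FPKM + 1), a scale that understates changes of low genes, fitted to the 4 groups at once without covariates. P-values were adjusted (Benjamini-Hochberg) over all tested genes of a comparison, with a threshold of 0.05. Nothing in the labels says how the 3 hearts of a group were paired or batched. The limma p-values set a difference against the spread between these samples, with variances moderated across all tested genes. Ratios of members were tested by two-sided exact permutation.

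Same-numbered libraries deviated together in all 3 pairs (correlation over 0.1) for IR in Slit2-Tg hearts (0.142 to 0.295) and for Slit2 after IR (0.154 to 0.362), and in 2 of 3 pairs otherwise. No label states a pairing. Alternatives were a pseudocount of 0.1, no filter, 10 reads in every library, only the libraries compared, a replicate block, TMM scaling (own code), scaling to 10 sarcomere genes, limma-voom on recovered reads, a robust prior, each library left out in turn and, chosen after seeing the data, the libraries numbered 1 left out and other transcript lengths. The fit was also run on simulated reads with known changes. That simulation held no shift of the libraries numbered 1, so it does not show how the fit handles them.

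The members, lists and tests were chosen with earlier results of these data known. All members were named. From each other list, genes past the adjusted threshold were named, with the 3 smallest p for IR over both genotypes and the smallest p in each Slit2 comparison, and Sln was named after its values were seen.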

Additional observations from a re-analysis of the deposited data

How the results depend on the processing

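In all 22 alternative fits, limma called 0 of the 10 members in each comparison that was fitted. The adjusted calls of Gem, Pde4b and Rcan1 over both genotypes were kept in the fits with 1 library left out, whereas those of Pde4b within a genotype were also lost without a filter, with only the libraries compared and under sarcomere scaling. Without the libraries numbered 1, Pde4b in Slit2-Tg hearts (adjusted p = 0.110) and Calr over both genotypes (0.0536) did not pass in limma. Of 60 member differences, 22 kept their sign in every alternative and 38 did not, 8 of 10 for the interaction.

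With each library left out in turn, the log2 fold change of IR over both genotypes ran from -0.13 to 0.042 for Pln, from -0.026 to 0.25 for Ryr2, from -0.10 to 0.069 for Cacna1c and from -0.051 to 0.14 for Jph2. In the same fits, IR in C57BL/6J hearts ran from -0.067 to 0.023 for Jph2 and from -0.032 to 0.84 for Slc8a1, and IR in Slit2-Tg hearts from -0.23 to 0.041 for Pln. Slit2 without IR ran from -0.0088 to 0.86 for Slc8a1, Slit2 after IR from -0.17 to 0.011 for Casq2, and the interaction of Ryr2 from -0.40 to 0.14. The ratio differences ran from -0.053 to 0.17 for Casq2 to Ryr2, from 0.036 to 0.42 for Slc8a1 to Atp2a2 and from -0.285 to -0.074 for Pln to Atp2a2. The causes were not tested. Asph over both genotypes had unadjusted p-values of 0.00719 to 0.0219 in these limma fits, Casq2 of 0.0190 to 0.0995 and Asph in Slit2-Tg hearts of 0.0111 to 0.0731.

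Without the libraries numbered 1, 19 of 60 member differences changed sign. IR over both genotypes reversed for Ryr2 (-0.089), Slc8a1 (-0.13) and Trdn (-0.0055), IR in C57BL/6J hearts for Casq2 (-0.015), Slc8a1 (-0.41), Ryr2 (-0.21), Cacna1c (-0.12), Camk2d (-0.041) and Pln (0.012), and IR in Slit2-Tg hearts for Trdn (-0.051). Slit2 without IR reversed for Slc8a1 (-0.039), Camk2d (-0.053) and Jph2 (-0.21), Slit2 after IR for Pln (0.019) and the interaction for Ryr2 (0.25), Slc8a1 (0.55, limma p of 0.0566), Atp2a2 (0.074), Cacna1c (0.078) and Camk2d (0.26). These fits hold 2 hearts a group. Scaling to the sarcomere genes moved the median of all genes by -0.11 for IR in Slit2-Tg hearts, left 0 members at an unadjusted p under 0.05 in limma and gave -0.071 for Jph2 and -0.017 for Trdn over both genotypes. Relative to those genes Rcan1 had an adjusted p of 0.0511 and Calr of 0.201.

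The replicate block changed no call of a member. It changed all genes called for IR in Slit2-Tg hearts from 77 to 194, and gave calls to Gem in C57BL/6J hearts (limma adjusted p = 0.0237) and to Rrad over both genotypes (0.0375), where the numbers do not pair all libraries. With hearts paired by replicate number alone, the Pln to Atp2a2 ratio was lower after IR in 6 of 6 pairs (log2 difference -0.21). The exact two-sided p was 0.0312, the smallest that 6 pairs can give, and 0.0938 after adjustment over 3 ratios. No label states such a pairing, and the C57BL/6J libraries numbered 3 had a correlation of 0.084, under 0.1. The planned unpaired permutation within genotype gave p = 0.125, and 0.625 after adjustment over all ratio tests. The paired p is therefore not read as a result. For Slit2 after IR the replicate block gave 9 calls in place of 7.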
